A study of Schizosaccharomyces pombe with 8 samples.

Results

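The comparison described here is that of polysome RNA from slr1- cells with polysome RNA from WT cells of the fission yeast Schizosaccharomyces pombe. It sets against each other 4 of the 8 libraries of the series, which are all the polysome libraries. It covers the 527 genes of the deposited count table whose identifiers begin with SP. Scale factors, SEs and p-values come from a fit to all 8 libraries, total RNA included. The slr1- cells were knockouts of slr1, and the WT cells were of strain yAS99. Both groups grew with shaking in YES, a rich yeast extract medium, at 32 °C, and both were treated with 100 µg/mL cycloheximide, which stalls ribosomes on mRNA. RNA was taken with TRIzol, depleted of ribosomal RNA, and sequenced from stranded libraries as single 50 bp reads. Each group had 2 libraries, described in the labels as biological replicates, and 4 further libraries held total RNA of the same strains. The cut and pooling of polysome fractions is not given in the sources used here. Counts of slr1 itself were not analysed here, and each direction below therefore rests on the sample labels.

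Slr1p is the fission yeast member of the LARP1 family of La-related RNA-binding proteins. In mammals LARP1 binds the cap-adjacent pyrimidine tract (TOP motif) of mRNAs for ribosomal proteins and translation factors, and regulates both their stability and their translation. Polysomes are mRNAs carrying several ribosomes, so the RNA in them is taken as the translated part of the transcriptome. The RNA of a gene in polysomes depends both on how much of its mRNA exists and on how much of that mRNA is loaded with ribosomes. In counts scaled to the library total, more of one RNA and less of the rest cannot be told apart.

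Totals over the 527 genes were 633394 and 666057 counts in slr1- polysomes and 566241 and 550490 counts in WT polysomes. They are sums of the listed genes, not depths of whole libraries. The rule by which the table lists these genes is not stated, so counts of higher and lower genes describe the listed genes and not the whole transcriptome. The lowest polysome mean was 36.5 counts and the median 571. Normalised counts below are counts divided by the TMM-scaled library size and multiplied by its mean over the 8 libraries. Replicate libraries differed by an SD over genes of 0.248 (log2) in slr1- and 0.163 in WT polysomes, so the slr1- libraries lay further apart. Intervals for shares of counts cover counting error only.

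No single gene passed the threshold in the comparison of slr1- with WT polysomes. Under edgeR's quasi-likelihood test with Benjamini-Hochberg adjustment 0 of 527 genes (0%) had an adjusted p under 0.05, and the smallest adjusted p was 0.0818. The limma-voom test also called 0 genes. DESeq2 called 18 of the 272 genes to which it gave an adjusted p (6.62%), 15 higher and 3 lower in slr1-. It gave one to 115 of the 126 ribosomal protein genes but to only 157 of the other 401. Its calls therefore describe these genes only. At an unadjusted p under 0.05, 71 genes (13.5%) were higher and 29 (5.50%) lower by edgeR. With library sizes alone as the scale, these became 43 higher and 60 lower. That fit and the main one used all 8 libraries. With the 4 polysome libraries fitted alone, 86 were higher and 57 lower, and 0 genes passed after adjustment. The differences were small: 17 of 527 genes differed at least 1.5-fold, 6 higher and 11 lower, and 1 gene at least 2-fold.

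A second reading used no threshold on p. A gene was counted as without overlap when both slr1- libraries lay above, or both below, both WT libraries in normalised counts. By this reading 152 genes (28.8%) were higher and 161 (30.6%) lower in slr1- polysomes. These shares of all 527 genes are the background for the counts without overlap of each list below. They mix 2 unlike sets: of 126 ribosomal protein genes 100 were higher and 0 lower, and of the other 401 genes 52 were higher and 161 lower. Against the other 401 alone, a list with fewer higher than lower genes is the usual case. The gene groups divided unevenly between these directions. Genes of ribosomal proteins held most of the higher genes, with the translationally controlled tumour protein gene beside them. Genes of the mitochondrial genome, lipid synthesis, the TCA cycle list (which includes pyruvate dehydrogenase genes) and the tRNA synthetases lay on the lower side. The median log2 fold change over all 527 genes was -0.03. It was 0.03 with TMM factors of the genes other than ribosomal protein genes and -0.12 with library sizes alone, and every gene's value shifts with it.

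**Figure D1:**
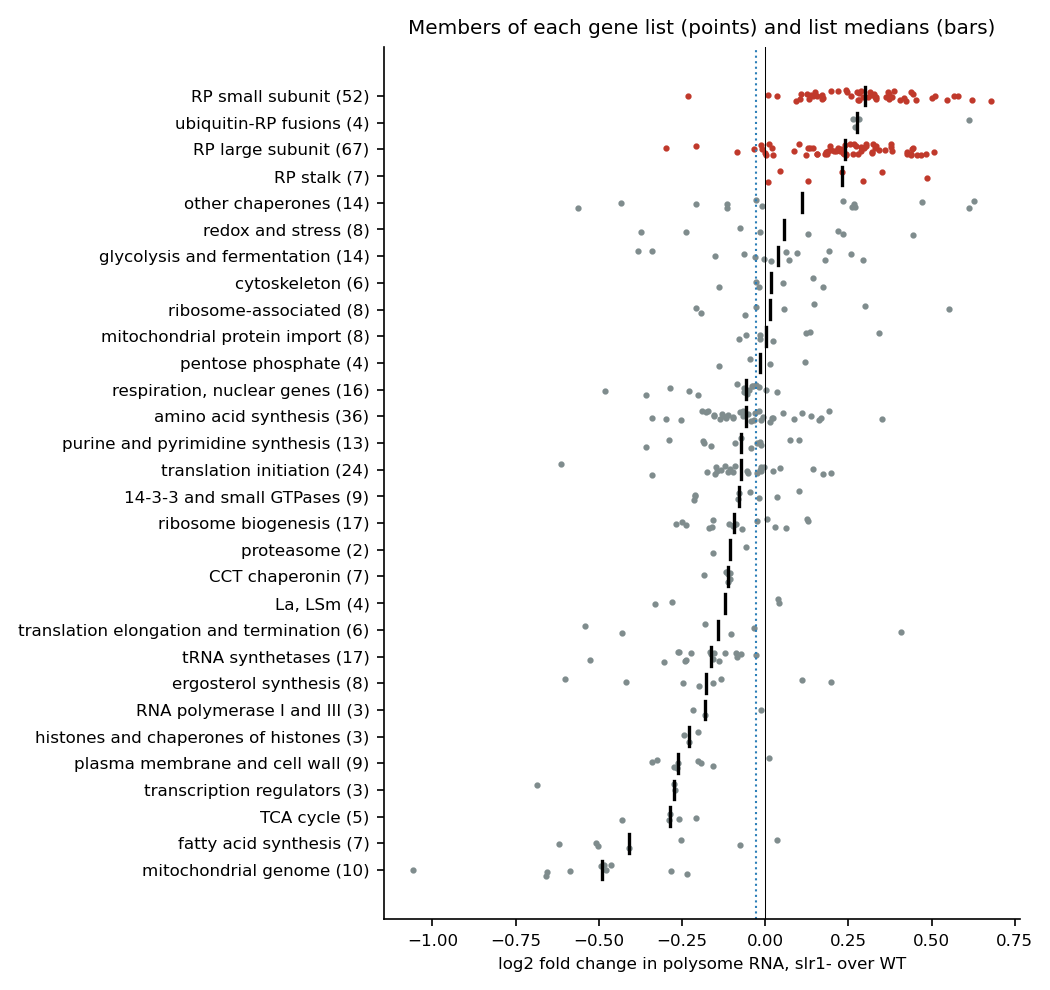
Log2 fold change in polysome RNA, slr1- over WT (horizontal axis), of the members of each gene list, with 1 point per gene, a black bar at the list median and the number of members in parentheses. The dotted blue line marks the median of all 527 genes, -0.03. Ribosomal protein lists (red) lie at the top, with the ubiquitin fusions between them and medians of 0.23 to 0.30, and the mitochondrial genome lies at the bottom with a median of -0.49.

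Ribosomal protein (RP) genes had more polysome RNA in slr1- than in WT as a group, and more total RNA as well. Of 126 RP genes, 119 had a positive log2 fold change and 7 a negative one, with a median of 0.27 (1.21-fold). In 100 of them both slr1- libraries lay above both WT libraries and in 0 both lay below, against 28.8% and 30.6% of all 527 genes. At an unadjusted p under 0.05 by edgeR, 55 were higher and 0 lower, and after adjustment 0 passed. DESeq2 called 12 of the 115 RP genes to which it gave an adjusted p, all higher. For the other 401 genes the median was -0.09, and 52 lay higher and 161 lower without overlap. Per library, the median RP value relative to the WT mean was 0.22 and 0.29 in the slr1- libraries, against -0.0043 and 0.0043 in the WT libraries. RP genes took 42.1% (95% Wilson interval 41.9 to 42.2%) and 43.2% (43.1 to 43.3%) of the listed counts in slr1- polysomes. In WT polysomes they took 38.1% (38.0 to 38.2%) and 38.3% (38.2 to 38.4%). The RP median was 0.33 with TMM factors of the non-RP genes and 0.18 with library sizes alone, with 122 and 108 positive values. In total RNA the median of the same 126 genes was 0.38, against 0.27 in polysomes. There 75 were higher and 4 lower at an edgeR adjusted p under 0.05. Their share of listed counts in total RNA was 54.3% and 50.3% in slr1- and 45.5% and 45.3% in WT.

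**Figure D2:**
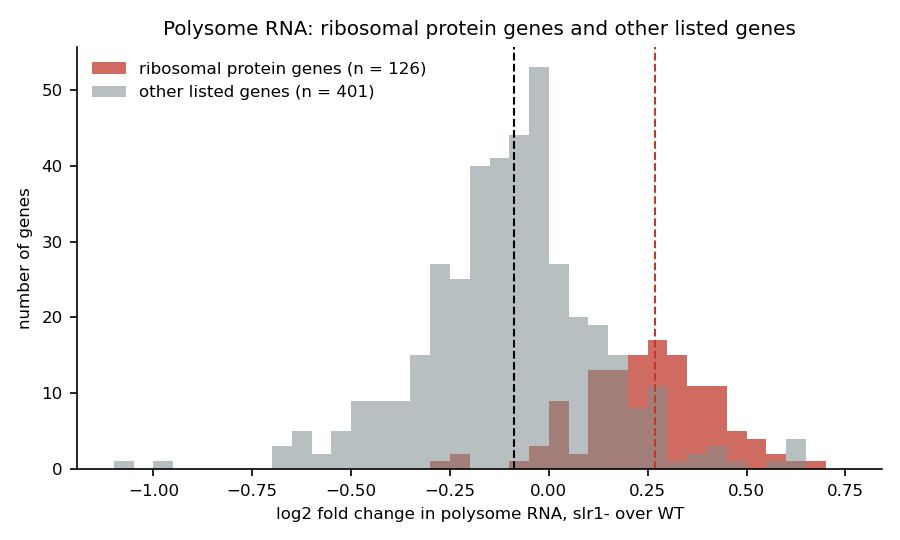
Number of genes (vertical axis) by log2 fold change in polysome RNA, slr1- over WT (horizontal axis, bins of 0.05), for the 126 RP genes in red and the other 401 listed genes in grey. Dashed lines mark the medians, 0.27 for RP genes and -0.09 for the others, and the red distribution lies mostly right of 0.

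Proteins of the small subunit, which binds mRNA and decodes it, gave the highest values. Their 52 genes had a median of 0.30, with 51 positive values and 46 higher without overlap. The highest of all 527 genes was rps2502, which encodes eS25 (SPAC694.05c.1, chrI:4208428-4208856, minus strand). It had 2407 and 3347 normalised counts in the slr1- libraries, against 1819 and 1776 in the WT libraries. All slr1- values lay above all WT values, with a log2 fold change of 0.68 ± 0.17 (SE; n = 2 libraries each; edgeR adjusted p 0.0818). The gene of uS19, rps1502, had 1479.7 and 1789 in slr1-, against 1079 and 1044 in WT (0.62 ± 0.13). For rps21, the gene of eS21, the values were 4042 and 5684 in slr1-, against 3237 and 3267 in WT (0.58 ± 0.15). In both the groups stood apart, although the slr1- libraries of rps21 differed more from each other than the WT libraries did. Lower in abundance, rps1002 (eS10) had 327 and 312 in slr1-, against 242 and 189 in WT (0.57 ± 0.27), and rps3002 (eS30) had 145 and 186 in slr1-, against 103 and 123 in WT (0.55 ± 0.20). Among genes with the smallest p, rps102 (eS1) had 3553 and 3809 in slr1-, against 2612 and 2802 in WT (0.44 ± 0.11). For rps2602 (eS26) the values were 1945 and 2269 in slr1-, against 1485 and 1493 in WT (0.50 ± 0.12). Each of these 7 genes was higher in 2 of 2 slr1- libraries, but they were chosen on the same libraries, so this adds no support. The DESeq2 test, with its own adjustment, called rps2502, rps1502, rps21, rps102 and rps2602 (adjusted p 0.00347 to 0.0294). Without replicate 1 of slr1- polysomes, edgeR called rps21 and tma19 (adjusted p 0.0444 for both). These 2 genes were the whole of that count, and were chosen here after their values were seen.

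The 67 genes of the large subunit, which joins amino acids, had a median of 0.24, with 61 positive values, 50 higher and 0 lower without overlap. The highest was rpl3202, encoding eL32, with 2838 and 3356 normalised counts in the slr1- libraries, against 2129 and 2226 in the WT libraries. The groups did not overlap (0.51 ± 0.11; edgeR adjusted p 0.0818). Next came rpl3702 (0.48 ± 0.15) and rpl2402 (0.47 ± 0.15). For rpl44, annotated in the reference as a member of the L28e family, the counts were 3516 and 3635 in slr1-, against 2772 and 2500.1 in WT (0.44 ± 0.10). The stalk, which recruits translation factors to the large subunit, is built of P0, P1 and P2. Its 7 genes were all positive, with a median of 0.23 and 4 higher without overlap. Without replicate 2 of WT polysomes the stalk median was 0.0637, with 5 positive and 2 negative values, and without replicate 1 of slr1- polysomes 0.14. The highest was the P1 gene rpp102, with 4939 and 5781 in slr1-, against 4046 and 3609.5 in WT (0.49 ± 0.12). Some fission yeast ribosomal proteins are made as fusions with ubiquitin, and all 4 fusion genes lay higher without overlap. They were ubi5 (0.61 ± 0.16), ubi2 (0.28 ± 0.13), ubi1 (0.27 ± 0.11) and ubi3 (0.27 ± 0.11). For ubi5, 13.9% of the 50-base windows of its transcript occur in another transcript, so its reads could be split uncertainly.

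The RP genes with negative values were few and overlapped between the groups. The lowest was rpl3002 (eL30), with 435 and 316 in slr1-, against 427 and 497 in WT (-0.30 ± 0.20). The uS8 gene rps2202 had 572 and 697 in slr1-, against 809.9 and 682 in WT (-0.23 ± 0.17). Below 0 were also rpl102 (-0.21 ± 0.16) and rpl3402 (-0.08 ± 0.17). The other 3, rpl6, rpl2801 and rpl402, were at -0.03, -0.01 and -0.01. Most fission yeast RP families have several gene copies for 1 protein. Families were formed here from gene symbols without their copy numbers. This joined rpl801 and rpl8, whose symbols alone do not make them copies for 1 protein. Of 72 families so formed, 51 had 2 or more listed copies, and the median spread between their copies was 0.19 on the log2 scale. In 6 families copies differed in sign, and in 2, rps22 and rpl30, they lay more than 0.5 apart. There rps2201 was at 0.31 ± 0.11 and rpl3001 at 0.22 ± 0.09, opposite in sign to rps2202 and rpl3002. A refit with copies summed, in which the scale was also fitted anew, gave the 72 families a median of 0.29. In it 46 families were higher at an unadjusted p under 0.05 and 0 passed after adjustment by edgeR. The rpl6 gene, which has 1 listed copy, was at -0.03 in the fit of single genes and at 0.000197 in this one. Only 2 RP genes shared 10% or more of their 50-base windows with another transcript, and without them the median was 0.27.

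**Figure D3:**
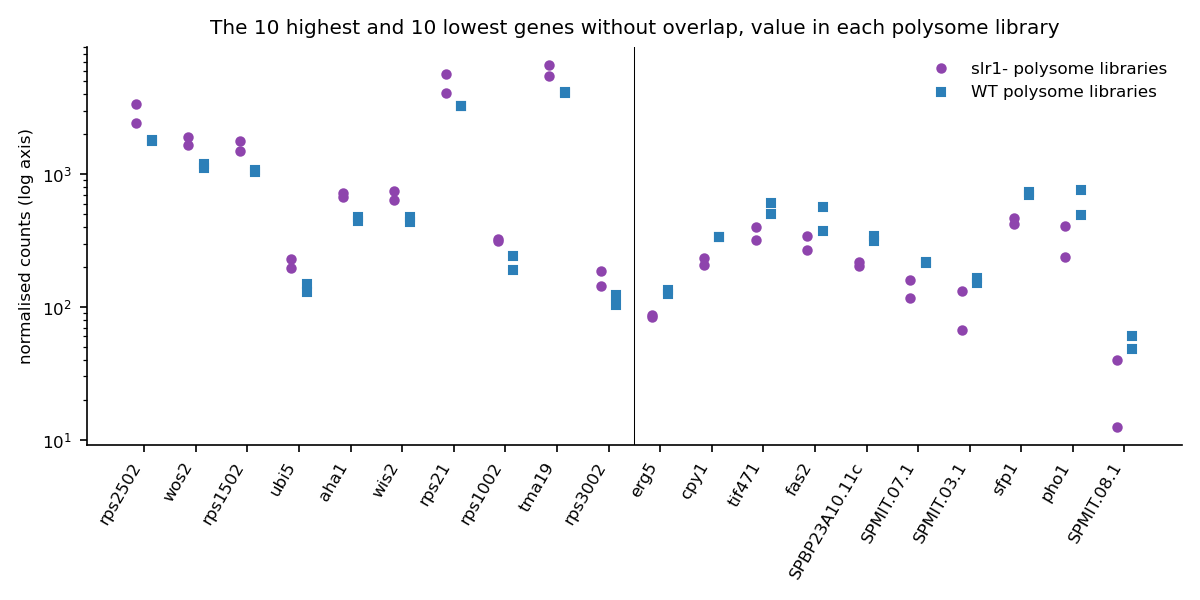
Normalised counts (vertical log axis) in each polysome library for the 10 genes with the highest and the 10 with the lowest log2 fold change among those without overlap, ordered from the highest on the left. Purple circles are slr1- libraries and blue squares WT libraries. The pair of circles lies above the squares left of the line and below them right of it, and SPMIT.08.1, of the mitochondrial genome, has the lowest counts.

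Fission yeast RP promoters are known for the HomolD box, which stands in for a TATA box, and the HomolE box. HomolD was searched as CAGTCACA and HomolE as ACCCTACC, on both strands, in the 250 bases before each annotated transcript start of RefSeq assembly ASM294v3. HomolD was in 64.3% of the 126 RP promoters (81), in 5.14% of the 389 other listed promoters with a match in the reference, and in 2.62% of all 5123 promoters of that length. HomolE was in 28.6% of RP promoters (36), 0.771% of the other listed ones and 77 of all 5123. Both were in 20 RP promoters. In RP promoters HomolD began at a median of 51 bases before the transcript start, with 55 boxes in the forward and 26 in the inverted direction. The stretches below are shown since their genes were among those with the smallest p or largest differences and hold the box. The deposited table names no build and holds no coordinates. HomolD is in capitals, and the inverted box reads TGTGACTG.
rps1502: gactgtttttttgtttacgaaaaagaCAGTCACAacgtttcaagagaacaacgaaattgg
rps21: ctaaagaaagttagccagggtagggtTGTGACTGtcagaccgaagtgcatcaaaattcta
rps102: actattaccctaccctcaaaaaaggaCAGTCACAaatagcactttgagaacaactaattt
rps2602: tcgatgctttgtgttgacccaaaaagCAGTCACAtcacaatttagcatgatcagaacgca
rpl44: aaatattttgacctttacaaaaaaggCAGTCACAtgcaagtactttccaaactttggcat
rpp102: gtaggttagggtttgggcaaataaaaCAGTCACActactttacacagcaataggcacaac
ubi5: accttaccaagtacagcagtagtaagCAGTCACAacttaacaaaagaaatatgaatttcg
tma19: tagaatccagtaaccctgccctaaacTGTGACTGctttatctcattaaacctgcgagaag

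The stretches, each read along its gene's strand, are at chrI:3868989-3869048, minus strand (rps1502), chrII:2083776-2083835, plus strand (rps21), chrI:898973-899032, minus strand (rps102), chrI:2793503-2793562, minus strand (rps2602), chrI:911703-911762, minus strand (rpl44), chrII:4009416-4009475, minus strand (rpp102), chrI:3108906-3108965, minus strand (ubi5) and chrI:3810065-3810124, minus strand (tma19), in ASM294v3. The rps21 stretch also holds an inverted HomolE box (GGTAGGGT) and the rps102 stretch a forward one, none of which overlaps HomolD. One stretch serves a pair of genes, since rps1502 and rpp203 are transcribed away from each other across it. Their polysome values were 0.62 and 0.01, and rpp203 overlapped between the groups. RP genes with HomolD had a median of 0.28 and those without it of 0.26. The 20 other listed genes with HomolD gave a median of -0.02, where 5 lay higher and 6 lower without overlap. The ubiquitin fusion genes are counted with these other genes. The 5 higher ones were the fusion genes ubi5 and ubi2 and the ribosome-associated genes tma19, cpc2 and btf3. The genes rps2502 and rpl3202 hold no HomolD in this window.

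Genes of the rest of the translation machinery mostly did not lie with the RP genes. The exception with the smallest p of all 527 genes was tma19, which encodes the translationally controlled tumour protein, in mammals the product of a TOP mRNA. It had 5474 and 6611 normalised counts in the slr1- libraries, against 4092 and 4141 in the WT libraries. The groups were clearly separate (0.55 ± 0.11; edgeR adjusted p 0.0818, DESeq2 adjusted p 0.00347). Among the 8 genes of ribosome-associated proteins, cpc2, the RACK1 scaffold of the small subunit, had 5746 and 5249 in slr1-, against 4428 and 4506 in WT (0.30 ± 0.13). The nascent chain-binding gene btf3 was at 0.15 ± 0.10 without overlap. The ribosome-bound Hsp70 gene sks2 was lower without overlap (-0.19 ± 0.10). The median of the 8 was 0.01, and it was -0.08 with library sizes alone.

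Of 24 initiation factor genes, 5 were positive and 19 negative (median -0.07, or -0.11 to -0.0476 with 1 library left out). With TMM factors of the non-RP genes the median was -0.01, with 12 positive and 12 negative values. Without overlap 2 were higher and 10 lower, against 28.8% and 30.6% of all genes. The lowest was tif471, the gene of eIF4G, the scaffold that joins the cap to the small subunit, with 401 and 319 normalised counts in the slr1- libraries, against 498 and 603 in the WT libraries. Both slr1- values were below both WT values (-0.61 ± 0.24; edgeR adjusted p 0.197). The poly(A)-binding protein gene pabp had 878 and 816 in slr1-, against 1064 and 1083 in WT (-0.34 ± 0.12). Higher without overlap were tif512 (eIF5A, 0.20 ± 0.11) and gcn3 (eIF2B alpha, 0.14 ± 0.15). Of 6 elongation and termination genes, 1 was higher and 4 lower without overlap, against the same shares of all genes, with a median of -0.14. The higher gene was tef5, whose product recharges the elongation factor eEF1A with GTP, with 3886 and 3723 in slr1-, against 2824 and 2915 in WT (0.41 ± 0.10; DESeq2 adjusted p 0.048). The gene of eEF3, an elongation factor of fungi, went the other way. For tef3 the values were 2848 and 3528 in slr1-, against 3981 and 4612 in WT (-0.43 ± 0.13). Lower without overlap were also tuf1, the mitochondrial EF-Tu (-0.54 ± 0.20), and the release factor genes sup35 (-0.18 ± 0.16) and erf1 (-0.10 ± 0.15).

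All 17 tRNA synthetase genes were negative, and 15 of them were lower without overlap, against 30.6% of all genes. The differences were small, with a median of -0.16 and a range of -0.53 to -0.03, and 1 of 17 had an unadjusted p under 0.05. Lowest was irs1, the isoleucine enzyme, with 229.5 and 318 in slr1-, against 372 and 417 in WT (-0.53 ± 0.24). The threonine enzyme gene trs1 was at -0.31 ± 0.20 and the alanine enzyme gene ala1 at -0.26 ± 0.19. Their library medians were -0.28 and -0.11 in the slr1- libraries, against -0.02 and 0.02 in the WT libraries, and without replicate 2 of slr1- polysomes the median was -0.28. Of 17 ribosome biogenesis genes, 5 were positive, 1 was higher and 5 were lower without overlap (median -0.09), which is near the 30.6% lower of all genes. The slr1- libraries were unlike, with biogenesis medians of -0.02 and -0.21 in the slr1- libraries, against -0.00 and 0.00 in the WT libraries. With 1 library left out that median was -0.24 to -0.0238. Low values were those of the RNA helicase gene dbp2 (-0.27 ± 0.13), rlp7 (-0.25 ± 0.16) and the GTPase gene nog1 (-0.24 ± 0.13), and the 1 higher without overlap was snu13 of the U3 snoRNP (0.12 ± 0.11). The 3 genes of RNA polymerases I and III overlapped between groups (median -0.18, or -0.33 to -0.0684 with 1 library left out). In the list of La and LSm genes, of 4, 1 was lower without overlap, lsm1 of the decapping complex (-0.33 ± 0.21), and sla1, the fission yeast La gene, overlapped (-0.28 ± 0.23). The median of the 4 was -0.12, or -0.30 to -0.0775 with 1 library left out.

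Some co-chaperones of Hsp90 lay among the highest genes outside the ribosome. They were set together after their values were seen and are not a list of their own, but part of the 14 listed chaperones other than CCT. The p23 gene wos2, whose product binds Hsp90 in its closed state, had 1905 and 1658 normalised counts in the slr1- libraries, against 1189 and 1118 in the WT libraries. The gene of Aha1, the activator of the Hsp90 ATPase, gave for aha1 721 and 673 in slr1-, against 472 and 440.0 in WT. For the cyclophilin gene wis2 the values were 740.4 and 639 in slr1-, against 472 and 433 in WT. In all 3 the groups stood clear of each other, with log2 fold changes of 0.63 ± 0.15, 0.61 ± 0.14 and 0.61 ± 0.20 (edgeR adjusted p 0.0818, 0.0818 and 0.142). DESeq2 called wos2 (adjusted p 0.00809), but it gave an adjusted p to only 6 of the 14 listed chaperones. The Hop gene sti1, which links Hsp70 to Hsp90, had 758 and 833 in slr1-, against 595 and 552 in WT (0.47 ± 0.17). Hsp90 itself overlapped, with 2916 and 4477 in slr1-, against 3101 and 3029 in WT (0.27 ± 0.24). In that list 7 values were positive and 7 negative, and 5 genes were higher and 4 lower without overlap, against 28.8% and 30.6% of all genes (median 0.11), and without replicate 2 of slr1- polysomes the median was -0.04. The lower ones included chaperones of the endoplasmic reticulum, the protein disulfide isomerase genes pdi2 (-0.56 ± 0.26) and pdi1 (-0.43 ± 0.24) and the BiP gene bip1 (-0.21 ± 0.20). All 7 genes of CCT, the chaperonin that folds actin and tubulin, were negative, at -0.18 to -0.11, and 6 were lower without overlap, against 30.6% of all genes. The CCT medians were -0.06 and -0.18 in the slr1- libraries, against -0.01 and 0.01 in the WT libraries, and with 1 library left out the median was -0.20 to -0.0603.

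Lipid synthesis genes lay on the lower side. Fatty acid synthesis had 7 listed genes and a median of -0.41. Of them 0 were higher and 4 lower without overlap, against 28.8% and 30.6% of all genes. Among the 401 non-RP genes, 52 were higher and 161 lower. The alpha subunit gene of fatty acid synthase, fas2, had 268 and 342 normalised counts in the slr1- libraries, against 373 and 565 in the WT libraries. The beta subunit gene fas1 had 407 and 538 in slr1-, against 541 and 799 in WT. Neither overlapped (-0.62 ± 0.26 and -0.50 ± 0.26). Also lower without overlap were the fatty acid elongase family gene elo2 (-0.51 ± 0.21) and the desaturase gene ole1 (-0.25 ± 0.24), while cut6, the acetyl-CoA carboxylase gene, overlapped (-0.41 ± 0.27). The slr1- libraries disagreed in size, since the list medians were -0.66 and -0.17 in the slr1- libraries, against -0.03 and 0.03 in the WT libraries, and with 1 library left out the median was -0.66 to -0.19. Of 8 ergosterol genes, 1 was higher and 6 lower without overlap, against the same shares of all genes (median -0.18). The sterol desaturase gene erg5 had 86.7 and 84.0 in slr1-, against 125 and 134 in WT (-0.60 ± 0.20), and erg25 was at -0.42 ± 0.21. Among 9 plasma membrane and cell wall genes 8 were negative and 6 lower without overlap, against 30.6% of all genes (median -0.26). They included the glucosidase gene exg1 (-0.34 ± 0.20), the proton pump gene pma1 (-0.32 ± 0.26) and ecm33 (-0.26 ± 0.14).

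In central carbon metabolism the lists parted. All 5 genes of the TCA cycle list, which also holds pyruvate dehydrogenase complex genes, were lower without overlap, against 30.6% of all genes. Their median was -0.29. The aconitase gene aco1 had 159 and 156 in slr1-, against 201 and 222 in WT (-0.43 ± 0.19). The pyruvate dehydrogenase complex genes lat1, dld1 and pda1 lay between -0.29 and -0.21. Of 16 nuclear genes of respiration, 14 were negative, 0 were higher and 4 lower without overlap, against 30.6% lower of all genes (median -0.06, and 0.002 with TMM factors of the non-RP genes). Without replicate 1 of WT polysomes the respiration median was -0.18, and without replicate 2 it was 0.00307, with 9 positive and 7 negative values. The 4 lower genes were sdh1 of succinate dehydrogenase (-0.48 ± 0.20), the ATP synthase genes atp2 (-0.36 ± 0.14) and atp1 (-0.23 ± 0.18) and qcr1 (-0.29 ± 0.17). Glycolysis and fermentation had members on both sides, 4 higher and 3 lower without overlap of 14, against 28.8% and 30.6% of all genes. The median was 0.04, -0.0146 to 0.0708 with 1 library left out, and -0.06 with library sizes alone. The glyceraldehyde-3-phosphate dehydrogenase gene tdh1 had 5456 and 6438 in slr1-, against 4915 and 4781 in WT (0.29 ± 0.11), and pgk1, of the next step, had 4849.5 and 4983 in slr1-, against 4581 and 3642 in WT (0.26 ± 0.15). On the other side, the phosphofructokinase gene pfk1 had 870.5 and 1126 in slr1-, against 1176 and 1429 in WT (-0.38 ± 0.15). The aldehyde dehydrogenase gene atd1 had 3284 and 3138 in slr1-, against 3868 and 4268 in WT (-0.34 ± 0.11). None of these 4 genes overlapped, and 16.6% of the 50-base windows of tdh1 occur in another transcript. Of 4 pentose phosphate genes 1 was lower without overlap, tkt1 (-0.14 ± 0.12).

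Of 36 amino acid synthesis genes, 4 were higher and 10 lower without overlap, against 28.8% and 30.6% of all genes. Their median was -0.06, -0.12 to 0.00978 with 1 library left out, and 0.002 with TMM factors of the non-RP genes. The branched-chain aminotransferase gene eca39 had 1408 and 1433 in slr1-, against 1148 and 1079 in WT (0.35 ± 0.12), and the isopropylmalate dehydratase gene leu2 was at -0.34 ± 0.17. Of 13 purine and pyrimidine genes, 0 were higher and 4 lower without overlap, again near the 30.6% of all genes (median -0.07, or -0.16 to -0.00842 with 1 library left out), with ura1 (-0.36 ± 0.21) and ade3 (-0.29 ± 0.17) lowest. With TMM factors of the non-RP genes their median was -0.0099, with 6 positive and 7 negative values. Among 8 redox genes, 4 were higher and 2 lower without overlap, against 28.8% and 30.6% of all genes (median 0.06, and -0.04 with library sizes alone). The peroxiredoxin gene pmp20 had 618 and 598 in slr1-, against 511 and 383 in WT (0.44 ± 0.17), followed by the glutaredoxin gene grx1 (0.23 ± 0.12), and the glutathione reductase gene pgr1 was lowest (-0.37 ± 0.17). Mitochondrial protein import genes gave 3 higher and 1 lower of 8 without overlap, against the same shares of all genes, with tom5 highest (0.34 ± 0.20).

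The lowest gene of the comparison, SPMIT.08.1, comes from the mitochondrial genome, as its identifier shows. The 10 listed SPMIT genes have no name in the reference. All 10 were negative, 8 of them lower without overlap, against 30.6% of all genes, with a median of -0.49. SPMIT.08.1 had 40.2 and 12.4 normalised counts in the slr1- libraries, against 60.7 and 48.6 in the WT libraries, and SPMIT.03.1 had 132 and 67.4 in slr1-, against 151 and 164 in WT. In both, replicate 2 of slr1- was the lowest library, and the groups did not overlap (-1.06 ± 0.51 and -0.66 ± 0.30). SPMIT.07.1 had 159 and 116 in slr1-, against 215 and 218 in WT (-0.65 ± 0.22; DESeq2 adjusted p 0.0489). SPMIT.10.1 had 256 and 257 in slr1-, against 358 and 358 in WT (-0.48 ± 0.12; edgeR adjusted p 0.0818, DESeq2 adjusted p 0.0489). The slr1- libraries differed, with list medians of -0.26 and -0.76 in the slr1- libraries, against -0.05 and 0.05 in the WT libraries, and with 1 library left out the median was -0.79 to -0.26. The 10 genes took 0.448% and 0.309% of listed counts in slr1- polysomes and 0.521% and 0.579% in WT polysomes. In total RNA they took 3.98% and 4.43% in slr1- and 4.52% and 5.63% in WT. Mitochondrial mRNAs are translated inside the organelle, and the part of organelle RNA carried over into the polysome fractions was not tested.

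Among single genes of other kinds, sfp1 had the smallest p on the lower side. It encodes an annotated transcription factor, whose budding yeast namesake activates ribosomal protein genes. It had 466 and 420.0 normalised counts in the slr1- libraries, against 694 and 731 in the WT libraries. The slr1- values were clear of the WT values (-0.68 ± 0.15; edgeR adjusted p 0.0818). DESeq2 gave sfp1 no adjusted p. The 2 other genes in the list of transcription regulators, fil1 (-0.28 ± 0.18) and pac2 (-0.27 ± 0.16), were lower without overlap as well (list median -0.28, or -0.42 to -0.17 with 1 library left out). The secreted acid phosphatase gene pho1, known to be repressed by phosphate, had 236 and 408 in slr1-, against 754 and 489.8 in WT (-0.95 ± 0.35). Its replicates differed widely in both groups. The vacuolar carboxypeptidase gene cpy1 had 206 and 234 in slr1-, against 337 and 336 in WT (-0.61 ± 0.19), and the glucanase gene SPBP23A10.11c had 202 and 218 in slr1-, against 344 and 314 in WT (-0.65 ± 0.22). DESeq2 called SPBPB7E8.01, an uncharacterised gene (-0.48 ± 0.12; DESeq2 adjusted p 0.0446), named after its values were seen, since it completes the 3 genes called lower with the SPMIT pair above.

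In the remaining lists few genes stood apart. Of 3 genes of histones and their chaperones, 2 were lower without overlap, the histone H3 gene hht2 (-0.24 ± 0.13) and nap1 (-0.23 ± 0.19), against 30.6% of all genes. Their library medians were -0.08 and -0.40 in the slr1- libraries, against -0.06 and 0.06 in the WT libraries, and with 1 library left out the median was -0.43 to -0.0806. Without overlap the 6 cytoskeleton genes had 1 higher, the profilin gene cdc3 (0.14 ± 0.14), and 1 lower, the beta-tubulin gene nda3 (-0.14 ± 0.14). The shares of all genes were 28.8% and 30.6%. The cytoskeleton median was 0.02, or -0.08 with library sizes alone. Of 9 genes of 14-3-3 proteins and small GTPases 1 was higher and 4 lower without overlap, against the same shares, with rad25 lowest (-0.21 ± 0.15). Their list median was -0.08, or -0.16 to -0.03 with 1 library left out. With TMM factors of the non-RP genes it was -0.02, with 4 positive and 5 negative values. Both proteasome genes were lower without overlap, by little (median -0.11). For the 136 genes in no list the median was -0.08, and 18 lay higher and 48 lower without overlap.

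Apart from function, the polysome difference varied with mRNA length, and so did the difference in total RNA. Genes with an annotated transcript were split into 3 groups of equal size by length. Of 171 genes in the group of longest mRNAs (1634 to 7140 bases), none of them an RP gene, 17 were positive and 104 were lower without overlap, with a median of -0.17. In the middle group the 145 non-RP genes gave a median of -0.03, where 25 lay higher and 36 lower without overlap. In the group of shortest mRNAs the 73 non-RP genes (219 to 823 bases) gave a median of 0.0019, where 23 lay higher and 13 lower without overlap. RP genes among the shortest (100 genes) had a median of 0.28, and the 26 in the middle group of 0.16. Medians also differed by abundance: in the group of lowest polysome counts, by the same kind of split, 167 genes other than RP genes had a median of -0.16, in the middle one 147 such genes of -0.07, and in that of highest counts 87 such genes of -0.01. RP genes ran the other way, with medians of 0.33 (9 genes), 0.28 (28) and 0.26 (89) in the same order. Total RNA gave the same order for non-RP genes, with medians of -0.14, -0.23 and -0.48 from the shortest to the longest mRNAs. In the groups of lowest, middle and highest polysome counts their total RNA medians were -0.50, -0.40 and -0.0015. The part of length or abundance in any list's value was not tested.

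**Figure D4:**
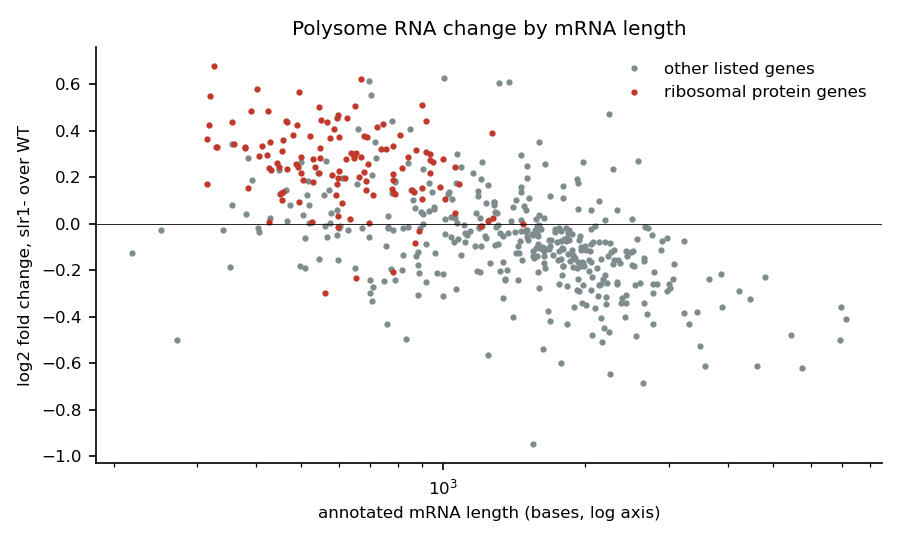
Log2 fold change in polysome RNA, slr1- over WT (vertical axis), against annotated mRNA length in bases (horizontal log axis), with 1 point per gene, RP genes in red and the other listed genes in grey. Most long mRNAs lie below 0, where the group of longest mRNAs has a median of -0.17, and RP genes fill the short end above 0.

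Total RNA of the same strains was set beside polysome RNA, since mRNA abundance feeds into both. In total RNA 104 genes (19.7%) rose and 177 (33.6%) fell by the same edgeR test, and 127 passed without replicate 1 of slr1- total RNA. The split moved with the scale, to 182 higher and 72 lower with TMM factors of the non-RP genes and to 60 and 260 with library sizes alone. The spread of log2 fold changes over genes (SD) was 0.262 in polysome RNA and 0.51 in total RNA. Of the 104 genes, 95 were positive in polysomes, where their median was 0.24, against 0.52 in total RNA. Of the 177, 148 were negative, with a median of -0.16 in polysomes and -0.70 in total RNA, and 176 differed less in polysomes than in total RNA. These genes were chosen for their total RNA values, so the sizes are a description. Across the 527 genes, which are not independent replicates, Pearson's r between both differences was 0.625 and Spearman's rho 0.651. Among the 5 genes that rose most in total RNA, pmp20 was at 0.44 in polysomes and 1.40 in total RNA, and pgk1 at 0.26 and 1.23. The RP genes rpl2101, rps1602 and rpl1701 were at 0.20, 0.44 and 0.22 in polysomes and 1.15, 1.04 and 1.01 in total RNA. Among the 5 that fell most, the uncharacterised gene SPCC24B10.18 had 419 and 333 in slr1-, against 339.7 and 411 in WT in polysomes. The groups overlapped, at 0.0019 in polysomes and -1.48 in total RNA. The pma1 gene was at -0.32 and -1.28, sla1 at -0.28 and -1.18, SPMIT.03.1 at -0.66 and -1.34, and SPMIT.08.1 at -1.06 and -1.19.

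**Figure D5:**
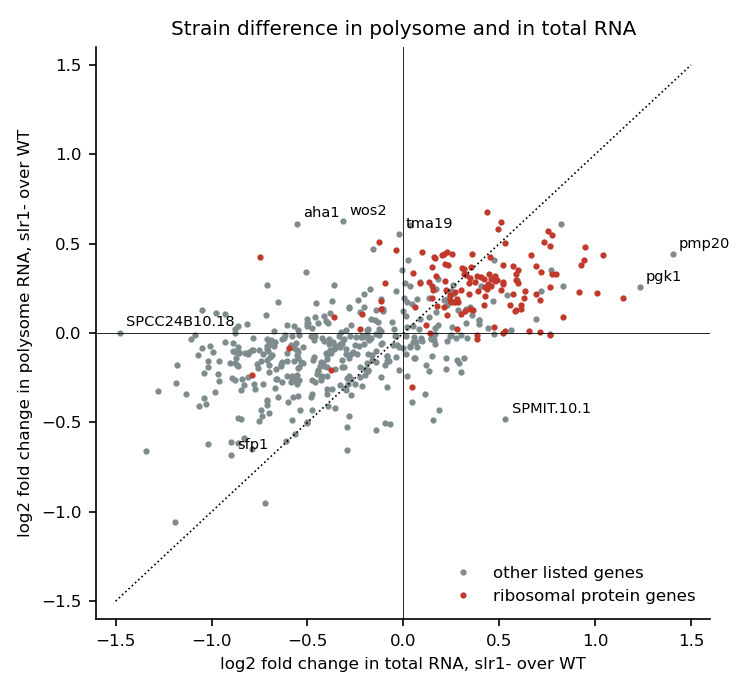
Log2 fold change of slr1- over WT in polysome RNA (vertical axis) against total RNA (horizontal axis), with 1 point per gene, RP genes in red and the other listed genes in grey. On the dotted line both differences are equal. The cloud is wider along the total RNA axis, and aha1 and SPMIT.10.1 lie on opposite sides of 0 in the 2 kinds of RNA.

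The difference between the strain effects in polysome and in total RNA was tested as an interaction. Under edgeR 2 of 527 genes (0.380%) passed. For aha1 total RNA had 247 and 266 in slr1-, against 406 and 347 in WT, opposite to its polysome values, and the difference of effects was 1.17 ± 0.20 (SE; edgeR adjusted p 0.0353). For SPMIT.10.1 total RNA had 10921 and 9613 in slr1-, against 6961 and 7247 in WT. There the effect in polysomes minus that in total RNA was -1.01 ± 0.15 (edgeR adjusted p 0.0221). Both calls were lost with limma-voom, with TMM factors of the non-RP genes and when some single libraries, polysome ones among them, were left out. The aha1 call was also lost when SPMIT genes were left out of the fit. The RP genes gave 0 calls. Their median polysome effect minus total effect was -0.13, where that of all 527 genes was 0.15. With TMM factors of the non-RP genes these medians were -0.41 for RP genes and -0.12 for all genes. With 1 library left out the RP median was -0.22 to -0.06.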

How the data were processed

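The authors deposited 1 table with a column of whole-number counts per gene for each of 8 libraries. Per the submitters' processing notes RSEM and Bowtie were used. Their versions, the build, the annotation and the strand setting were not given in the sources used here. This table may be part of a longer one. How its 527 genes were chosen is not stated, and they may have been chosen on these samples. Its other columns were not used here.

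The fit used edgeR 4.0.16 in R 4.3.3, TMM factors, 1 mean per group and all 8 libraries sharing 1 dispersion trend (4 residual degrees of freedom). Two-sided quasi-likelihood tests were adjusted by Benjamini-Hochberg over 527 genes, with no filter and a threshold of 0.05. SEs are the log2 fold change over the square root of F. Named genes are the 10 highest and lowest without overlap (mean of at least 10 counts), the 10 smallest p, up to 3 per list and direction, those past the interaction or DESeq2 test, RP genes with negative values, and the 5 extremes of total RNA. Members, lists and rules were chosen with earlier results of these data known. The 30 lists were made from symbols and products of ASM294v3, in which 515 of 527 identifiers matched, and 4 lists and some assignments were set after the table was read. Alternatives were DESeq2 1.42.0, limma-voom (limma 3.58.1), other scale factors, other gene sets, a replicate block and leaving out each library. The labels call the replicates biological and name no cultures, so p-values measure only the spread between these samples. Reads of overlapping or antisense genes may be shared.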

Additional observations from a re-analysis of the deposited data

Results flagged for a closer look

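The difference between slr1- and WT was unlike in polysome and total RNA for a pair of genes, by the interaction test of edgeR over 527 genes. For aha1 the log2 fold change was 0.61 in polysomes and -0.55 in total RNA, and the effect in polysomes minus that in total RNA was 1.17 ± 0.20 (SE; adjusted p 0.0353). For SPMIT.10.1 it was -0.48 in polysomes and 0.53 in total RNA, a difference of effects of -1.01 ± 0.15 (edgeR adjusted p 0.0221). In each of the 2 kinds of RNA both slr1- libraries of these genes lay on the same side of both WT libraries. Neither call held with limma-voom or with TMM factors of the non-RP genes.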

How the results depend on the processing

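In polysome RNA 0 genes passed under the alternatives tried, except 18 with DESeq2 and 0 to 2 when 1 library was left out. A block for replicate number also gave 0 calls and 102 genes at an unadjusted p under 0.05, but no label ties the numbers to a shared culture, and same-numbered deviations correlated at -0.0642 between the strains in polysome and -0.144 in total RNA, and at 0.0699 in slr1- and 0.285 in WT between polysome and total RNA. Crossed pairing, added after seeing the data, called 0 genes in polysome and 303 in total RNA. The count at an unadjusted p under 0.05 was 46 to 85 with 1 library left out, where the lone library left is assumed to vary like the others. The RP median was 0.33 with TMM factors without RP genes, 0.18 with library sizes alone, 0.18 with genes of at least 500 counts, and 0.22 to 0.26 with 1 library left out. In total RNA 134 genes passed with genes of at least 500 counts and 127 to 288 with 1 library left out. The interaction count was 36 with DESeq2, 0 with limma-voom, TMM factors without RP genes or no SPMIT genes, 31 with library sizes alone, 13 with genes of at least 500 counts, 4 with RP copies summed, 9 with the replicate block, 46 with a replicate block of total and polysome pairs, and 0 to 77 with 1 library left out. Of 106 named genes 99 kept their sign in polysomes throughout, and 7 changed it. With TMM factors without RP genes rpl2801 was at 0.0474, rpl6 at 0.0286 and rpl402 at 0.0514. With library sizes alone rpp203 was at -0.0853 and SPCC24B10.18 at -0.0901. With genes of at least 500 counts rpp203 was at -0.0898, with RP copies summed rpl6 at 0.000197, and with limma-voom SPCC24B10.18 at -0.00124. With 1 library left out the values ran from -0.086 to 0.0489 for rpl2801, -0.16 to 0.13 for rpp203, -0.11 to 0.0179 for rpl6, -0.0954 to 0.0462 for rpl402, -0.22 to 0.0123 for rpl3402, -0.66 to 0.000146 for sla1 and -0.20 to 0.16 for SPCC24B10.18. Of 30 list medians 20 kept their sign. The cause of these changes was not tested. With 2 libraries a group and listed genes only, small differences may be missed.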

Other observations

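The Hsp90 co-chaperone genes were set side by side after their values had been seen. In polysomes wos2, aha1, wis2, sti1 and hsp90 were at 0.63, 0.61, 0.61, 0.47 and 0.27, and in total RNA at -0.31, -0.55, 0.04, -0.16 and -0.36, as log2 fold changes of slr1- over WT. By the interaction test of edgeR, aha1 passed and the others did not (adjusted p 0.0531 for wos2, 0.221 for wis2, 0.141 for sti1 and 0.266 for hsp90).

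The length of the annotated 5′ leader was compared as well, in 3 groups of equal size over the listed genes. RP genes with leaders of 0 to 27 bases (88 genes) had a polysome median of 0.31, those with leaders of 28 to 57 bases (35 genes) of 0.15, and the 3 with the longest leaders, of which 1 was positive, of -0.08. Other genes had medians of -0.05 for the shortest leaders (84 genes), -0.04 for the middle ones (137) and -0.14 for the longest (168). In total RNA the RP medians were 0.39, 0.43 and 0.05 in the same order of groups, and those of the other genes -0.38, -0.31 and -0.38. Leader length was not separated from mRNA length, by which the RP medians also differed. These are descriptions with no test.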
